A study of Mus musculus with 15 samples.

Results

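The proteasome genes of mouse were described across 4 groups of lung cell cultures. They were taken as every array probe that is not a control and whose gene name in the scanner files is Psma, Psmb, Psmc, Psmd, Psme, Psmf or Psmg followed by a number, which gave 48 genes on 61 of 55681 probes. RNA was measured with one-colour Agilent arrays in primary alveolar type II (ATII) cells given 1 mM β-aminopropionitrile (BAPN, 4 arrays), ATII cells given vehicle (phosphate-buffered saline, 4 arrays), primary lung fibroblasts given BAPN (3 arrays) and fibroblasts given vehicle (4 arrays), each for 24 h. BAPN blocks lysyl oxidases, which cross-link collagen and elastin outside cells. Per the labels' protocols, both cell types came from mice, the fibroblasts had gone through 3 or more passages and a 24 h starvation ahead of treatment, and the ATII cells had formed a monolayer during 3 days at an air-liquid interface, so that cell type and culture method cannot be told apart. Nothing in the labels says that arrays of a group are separate animals or cultures, and the spread behind each p-value is that between these arrays, possibly a technical one.

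The proteasome breaks down proteins tagged with ubiquitin. Its 20S core is a barrel of alpha and beta rings in which the beta subunits Psmb5, Psmb6 and Psmb7 cut the chain. In immune cells, and in many other cells after interferon-gamma, the subunits Psmb8, Psmb9 and Psmb10 take their places and form the immunoproteasome, which yields peptides for display on MHC class I. The 19S particle recognises, unfolds and feeds substrates through its ATPases (Psmc genes) and its other subunits (Psmd genes), activators of the Psme family can cap the core instead, and chaperones of the Psmg family and of Psmd5, Psmd9 and Psmd10 help to assemble the complex. Alveolar type II cells, the surfactant-making stem cells of the alveolus, are a lung epithelial cell in which immunoproteasome subunits have been described.

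The probes that measured the genes on which the results turned are shown first, 5′ to 3′, with their position in mouse build mm9 as the scanner files give it. They are the brightest probe of Psme1 and Psme2 (both on chromosome 14), of Psmb8 and Psmb9 (both on chromosome 17), of Psmb10 and of Psmg4. The minus strand is given where the file lists the larger coordinate first, and whether a probe lies in a coding exon or an untranslated exon was not looked up in that build.
Psme1, chr14:56200194-56200253, plus strand: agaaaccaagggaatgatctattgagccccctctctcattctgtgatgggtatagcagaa
Psme2, chr14:56206296-56206355, minus strand: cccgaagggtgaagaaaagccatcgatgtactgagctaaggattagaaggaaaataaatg
Psmb8, chr17:34337771-34337830, plus strand: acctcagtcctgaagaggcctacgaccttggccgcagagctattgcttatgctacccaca
Psmb9, chr17:34319174-34319233, minus strand: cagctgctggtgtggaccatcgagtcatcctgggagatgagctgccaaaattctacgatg
Psmb10, chr8:108459677-108459736, minus strand: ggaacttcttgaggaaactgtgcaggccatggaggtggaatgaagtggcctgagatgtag
Psmg4, chr13:34269918-34269977, plus strand: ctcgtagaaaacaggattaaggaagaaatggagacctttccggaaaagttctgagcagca

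The promoter windows of 3 of these genes hold sequences of the kind that interferon-activated factors read, and are shown. The 3 genes were higher in ATII cells than in fibroblasts and were picked with that known. Psmg1, called higher in ATII cells, and Psmd9, called lower in vehicle by its brightest probe, hold such matches too and are not shown. The windows, from RefSeq on GRCm38.p6, run from 250 bases before to 50 bases after the annotated start of the gene, on its plus strand. Capitals mark matches, on either strand, to the core of the interferon-stimulated response element (GAAA, any 2 bases, then GAAA) in Psme1 and Psmg4, and to the core of the gamma-activated site, TTCNNNGAA, in Psmb8. The match lay 10 to 19 bases after the start in Psme1, 16 to 25 bases after it in Psmg4, and at -97 to -89 in Psmb8.
Psme1, chr14:55578244-55578543: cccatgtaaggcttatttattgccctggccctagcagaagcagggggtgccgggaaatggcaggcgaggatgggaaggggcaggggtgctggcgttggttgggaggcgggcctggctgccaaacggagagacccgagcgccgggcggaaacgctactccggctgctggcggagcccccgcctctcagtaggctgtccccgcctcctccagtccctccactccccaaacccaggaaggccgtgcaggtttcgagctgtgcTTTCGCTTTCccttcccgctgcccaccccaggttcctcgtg
Psmg4, chr13:34162714-34163013: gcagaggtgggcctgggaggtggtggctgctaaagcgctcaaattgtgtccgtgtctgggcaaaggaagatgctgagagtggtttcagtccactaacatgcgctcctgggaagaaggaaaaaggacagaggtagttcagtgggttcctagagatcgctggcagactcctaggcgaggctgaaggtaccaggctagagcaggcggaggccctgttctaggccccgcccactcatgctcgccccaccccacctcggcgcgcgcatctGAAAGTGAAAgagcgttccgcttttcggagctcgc
Psmb8, chr17:34197945-34198244: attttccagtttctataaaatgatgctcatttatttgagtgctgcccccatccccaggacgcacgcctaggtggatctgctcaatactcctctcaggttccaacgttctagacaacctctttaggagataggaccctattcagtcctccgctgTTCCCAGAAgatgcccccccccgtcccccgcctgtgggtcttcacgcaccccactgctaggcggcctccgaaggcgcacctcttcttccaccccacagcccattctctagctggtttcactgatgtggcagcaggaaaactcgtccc

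Of the 48 genes, 40 had a promoter window. The response element core lay in the windows of 5 of these 40 genes, Psme1, Psmg4, Psmb3, Psmd4 and Psmd9, and in 3.44% of all 32851 windows. TTCNNNGAA, whose matches read the same on both strands, lay in 3 of the 40, Psmb8, Psmd2 and Psmg1, and in 8.30% of all windows. The windows of Psmb9, Psmb10 and Psme2 held neither. The core of the antioxidant response element, TGACNNNGC, which is read by the Nrf family that controls constitutive proteasome genes, lay in 6 of 40 (Psmb5, Psmb6, Psmc6, Psmd9, Psmd12 and Psme4) and in 12.4% of all windows. CCAAT boxes lay in 14 of 40 and in 37.4% of all windows. These are matches of letters, not sites shown to be bound.

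On the arrays, 46 of the 48 genes were well above background on all 15 arrays, and Psma8 and Psmb11, the testis and thymus forms of a core subunit, on none. The 46 were 7 alpha subunits, 7 constitutive beta subunits, 3 immunoproteasome subunits, 6 ATPases and 11 other subunits of the 19S particle, 4 activators, 1 inhibitor (Psmf1) and 7 assembly factors. Levels are given as log2 intensity minus the array's 75th percentile, so that 0 is the 75th percentile of all spots and 1 unit is a change of 2-fold. They are compared between groups for 1 probe at a time, never between genes. By this measure 43 of the 46 genes lay above 0 on all arrays. A gene with several probes is given by its brightest one.

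As to the cells, all 7 epithelial markers listed were higher in ATII than in fibroblast vehicle cultures, and Cdh1 was well above background on no fibroblast array. Of 9 ATII markers tested 7 were higher, Sftpc and Sftpb were well above background on no fibroblast vehicle array, and 1 of the 11 listed, Slc34a2, was so on no array of either cell type. The ATII markers summed to 40.5 to 43.2 in ATII vehicle and 28.2 to 32.1 in fibroblast vehicle cultures, relative to the 75th percentile. Markers of fibroblasts overlapped in summed level (746 to 998 in ATII vehicle and 873 to 1191 in fibroblast vehicle cultures, relative to the 75th percentile), with 5 of 11 lower in ATII cultures. Markers of macrophages and other leukocytes summed to 27.6 to 44.0 in ATII vehicle and 75.04 to 96.2 in fibroblast vehicle cultures, and 13 of 14 were lower and 1 (Cd14) higher in ATII cultures. Under BAPN these sums were 30.6 to 38.0 in ATII cells and 83.4 to 96.3 in fibroblasts. C1qa and C1qc were well above background on 1 of 4 ATII vehicle arrays each and on 4 of 4 fibroblast vehicle arrays. In bulk samples fewer cells of a type and less RNA per cell cannot be told apart. Arrays lay on 2 slides, both of which held arrays of all groups, and values within each slide are given with the main results.

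In vehicle, 2 of 3 immunoproteasome subunits and 3 of 4 activators were higher in ATII cells than in fibroblasts, and 0 of the 3 constitutive catalytic subunits were called. In all, 11 of the 46 genes were higher in ATII cells and 2 were lower (limma on all 15 arrays, Benjamini-Hochberg adjusted p under 0.05 over all 39078 probes tested). Over all probes tested 33.5% were called, 14.7% as higher and 18.8% as lower, so the share of proteasome genes called, 28.3%, was no larger than the background. Among the 13039 probes with a mean level above 0, 22.6% were called higher, against 23.9% of the proteasome genes. Groups did not overlap for 18 of the 46 genes and for 36.6% of all probes tested. The median difference was 0.12 for the 46 genes and -0.15 for all probes tested. Differences were small: 4 of the 46 genes, Psmg4, Psmb8, Psme1 and Psme2, differed by more than 1.5-fold. That share was 8.70% for the 46 genes, 30.6% for all probes tested and 23.7% for probes with a mean level above 0. Genes are given by role below, and the same contrast under BAPN, measured on other arrays, stands beside each.

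**Figure D1:**
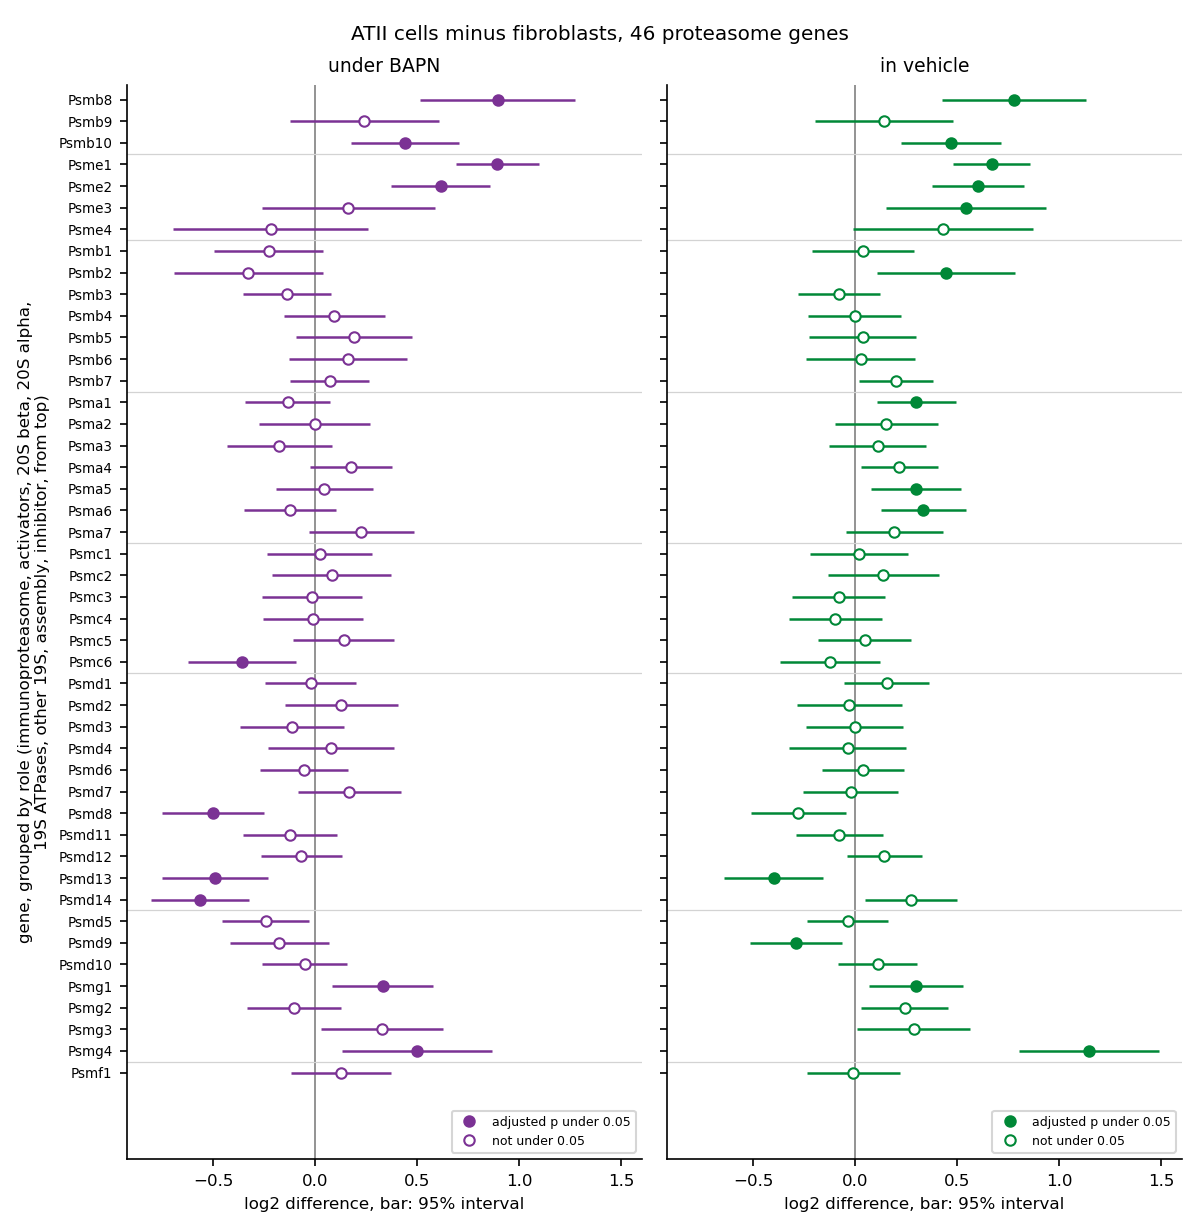
Difference between ATII cells and fibroblasts for the 46 measured proteasome genes, under BAPN (left) and in vehicle (right), on the log2 scale. Points are limma estimates, bars 95% intervals, filled points have an adjusted p under 0.05 over all probes, and genes are grouped by role from top to bottom. Psmb8, Psmb10, Psme1 and Psme2 lie to the right of 0 in both panels, and the 19S ATPases lie near 0 in vehicle.

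Psmb8, the interferon-inducible catalytic subunit that replaces Psmb5, had levels of 0.53, 0.57, 0.39 and 0.34 on the 4 ATII vehicle arrays, against -0.26, 0.03, -0.76 and -0.29 on the 4 fibroblast vehicle arrays. Every ATII array was above every fibroblast array. The difference was 0.78 ± 0.16 (SE), 1.71-fold, with an adjusted p of 0.0022 (limma). Under BAPN its levels were 0.69, 0.56, 0.30 and 0.38 in ATII cells, against -0.56, -0.12 and -0.55 in fibroblasts, a difference of 0.90 ± 0.18 (limma, adjusted p = 0.00155). Its constitutive counterpart Psmb5 had levels of 6.99, 7.11, 7.02 and 7.02 on ATII vehicle arrays, against 6.84, 6.81, 7.03 and 7.32 on fibroblast vehicle arrays. These groups overlapped, and the difference of 0.04 had a 95% interval of -0.23 to 0.30. Under BAPN it was 0.19 and did not pass, while a dimmer probe of Psmb5 gave 0.41 there and passed (limma, adjusted p = 0.0346).

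Psmb10, which replaces Psmb7, had levels of 4.15, 4.26, 3.99 and 4.23 on ATII vehicle arrays, against 3.63, 3.56, 3.62 and 3.93 on fibroblast vehicle arrays. The groups did not overlap, and the difference was 0.47 ± 0.11 (SE), 1.38-fold (limma, adjusted p = 0.0057). Under BAPN its levels were 4.21, 4.07, 4.39 and 4.15 in ATII cells, against 3.90, 3.73 and 3.66 in fibroblasts, a difference of 0.44 ± 0.12 (limma, adjusted p = 0.0144). These groups did not overlap either. Psmb7 had levels of 4.43, 4.27, 4.22 and 4.37 on ATII vehicle arrays, against 4.00, 4.18, 4.15 and 4.14 on fibroblast vehicle arrays. Its difference of 0.20 did not pass (limma, adjusted p = 0.0849), although the groups did not overlap.

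Psmb9, the remaining inducible catalytic subunit, which replaces Psmb6, did not follow the other inducible ones past the threshold. Its levels were -1.90, -2.07, -2.01 and -2.01 on ATII vehicle arrays, against -2.14, -1.80, -2.50 and -2.11 on fibroblast vehicle arrays. The fibroblast arrays lay on both sides of the ATII arrays, and the difference of 0.14 had a 95% interval of -0.20 to 0.48 (limma, adjusted p = 0.551). A second, dim probe of Psmb9 was well above background on 3 of all 15 arrays and is not used here. Psmb6 had levels of 6.43, 6.32, 6.29 and 6.31 on ATII vehicle arrays, against 6.11, 6.17, 6.28 and 6.68 on fibroblast vehicle arrays, with overlapping groups and a difference of 0.03. Under BAPN the differences were 0.24 for Psmb9, 0.16 for Psmb6 and 0.07 for Psmb7, and none of the 3 passed (limma, adjusted p = 0.325, 0.408 and 0.621). With quantile scaling and with the deposited values, Psmb5 and Psmb6 were called higher under BAPN, with 0.28 to 0.29 for Psmb5 and 0.27 to 0.28 for Psmb6. Whether the differences of Psmb8 and Psmb9 differ from each other was not tested.

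**Figure D2:**
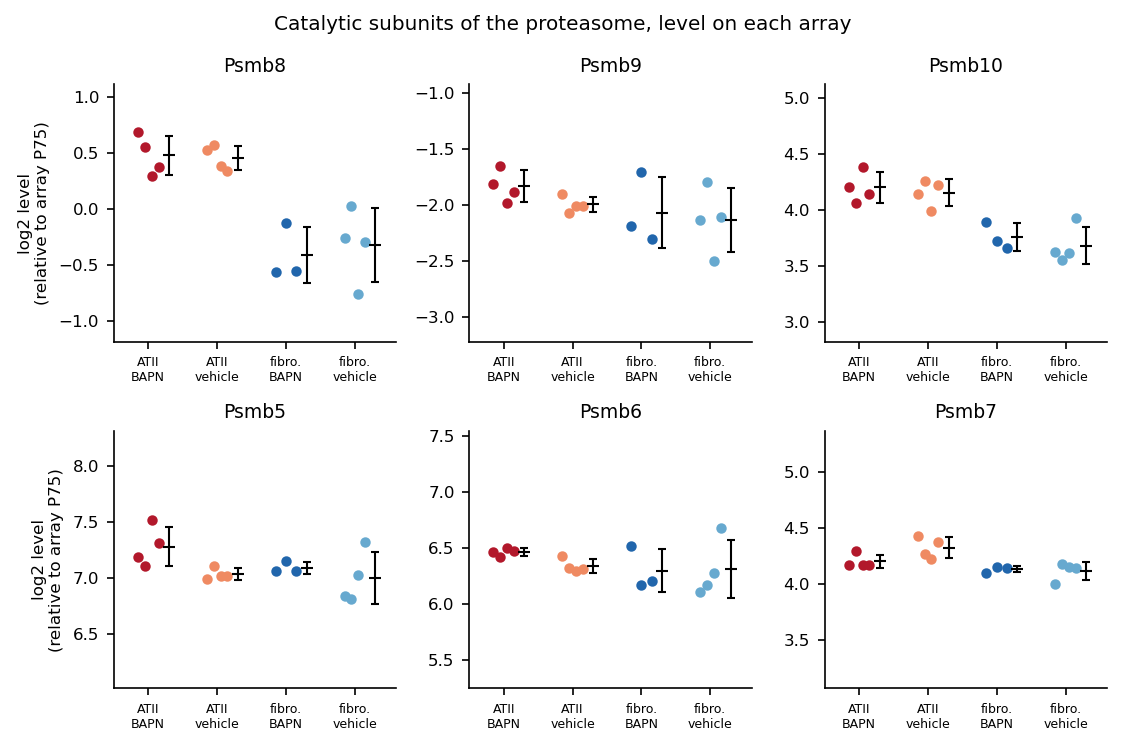
Level of the inducible catalytic subunits (top row) and of the constitutive subunits they replace (bottom row) on each array, as log2 intensity relative to the array's 75th percentile (P75). Points are arrays, from left ATII BAPN, ATII vehicle, fibroblast BAPN and fibroblast vehicle, bars are mean ± SD, and every panel spans the same range of log2 units. The ATII arrays lie above the fibroblast arrays for Psmb8 and Psmb10, and the groups overlap for Psmb9, Psmb5 and Psmb6.

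Of the activators, Psme1 and Psme2 code for the 2 partner subunits of the ring that caps the core and that interferon-gamma induces. Psme1 had levels of 3.95, 3.92, 3.82 and 3.83 on ATII vehicle arrays, against 3.07, 3.18, 3.20 and 3.40 on fibroblast vehicle arrays. All ATII arrays were higher, by 0.67 ± 0.09 (SE), 1.59-fold (limma, adjusted p = 5.24e-05). Under BAPN its levels were 4.06, 3.95, 4.03 and 3.96 in ATII cells, against a lowest of 3.09 and a highest of 3.13 on the 3 fibroblast arrays, a difference of 0.89 ± 0.09 (limma, adjusted p = 8.85e-06). The probe of Psme1 is printed on 10 spots of each array, whose intensities had a coefficient of variation of 2.16% to 6.17% within an array. Each of the 10 spots gave a difference between the cell types of 0.60 to 0.76 in vehicle and 0.85 to 0.93 under BAPN.

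Psme2 had levels of 5.80, 5.61, 5.45 and 5.44 on ATII vehicle arrays, against 4.98, 4.85, 4.94 and 5.10 on fibroblast vehicle arrays. The groups did not overlap and differed by 0.60 ± 0.10 (SE), 1.52-fold (limma, adjusted p = 0.000526). Under BAPN its levels were 5.85, 5.68, 5.93 and 5.75 in ATII cells, against 5.25, 5.19 and 5.12 in fibroblasts, a difference of 0.62 ± 0.11 (limma, adjusted p = 0.000899). A second probe of the gene gave 0.63 in vehicle and 0.67 under BAPN, both past the threshold, and the dimmest of its probes, whose transcript accession is not in the RefSeq table used, gave 0.05 and 0.39, neither past it. Psme3, a relative that forms a nuclear activator, had levels of 1.07, 0.89, 0.80 and 1.01 on ATII vehicle arrays, against 0.48, 0.10, 0.41 and 0.61 on fibroblast vehicle arrays, without overlap. Its difference of 0.54 passed in vehicle (limma, adjusted p = 0.0339), a call lost in 9 of 21 other settings, and it was 0.16 under BAPN, where it did not pass (limma, adjusted p = 0.595). Psme4, a large single-chain activator, had levels of 1.04, 1.31, 1.35 and 1.49 on ATII vehicle arrays, against 0.60, 1.38, 1.17 and 0.32 on fibroblast vehicle arrays. The fibroblast arrays were spread widely, and its differences of 0.43 in vehicle and -0.22 under BAPN did not pass.

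**Figure D3:**
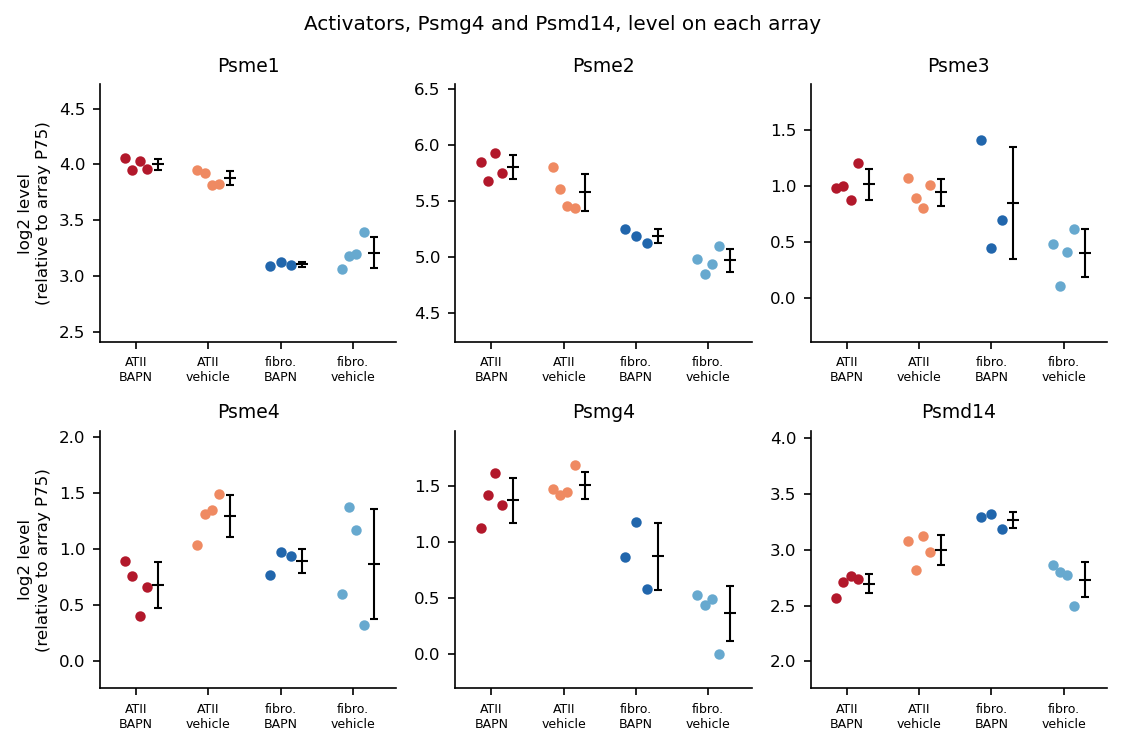
Level of the 4 activator genes, of the assembly factor Psmg4 and of the 19S subunit Psmd14 on each array, as log2 intensity relative to the array's 75th percentile (P75). Points are arrays, from left ATII BAPN, ATII vehicle, fibroblast BAPN and fibroblast vehicle, and bars are mean ± SD. Psme1 and Psme2 are higher on all ATII arrays, and Psmd14 is highest on the 3 fibroblast BAPN arrays.

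Psmg4, an assembly chaperone that works on the alpha ring together with Psmg3, had the largest difference of the 46 genes in vehicle. Its levels were 1.48, 1.42, 1.45 and 1.69 on ATII vehicle arrays, against 0.53, 0.44, 0.49 and 0 on fibroblast vehicle arrays. Every ATII array was above every fibroblast array, by 1.15 ± 0.16 (SE), 2.21-fold (limma, adjusted p = 8.16e-05). Under BAPN its levels were 1.13, 1.42, 1.62 and 1.33 in ATII cells, against 0.87, 1.18 and 0.58 in fibroblasts. There the groups overlapped and the difference was 0.50 ± 0.17 (limma, adjusted p = 0.0398), a call that was lost in 11 of 20 other settings. Psmg1, which pairs with Psmg2 as another assembly chaperone, was higher by 0.30 in vehicle (limma, adjusted p = 0.0454) and by 0.33 under BAPN (limma, adjusted p = 0.0426). Psmg3 had a value of 0.29 in vehicle and did not pass (limma, adjusted p = 0.111).

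In the rest of the core, all 7 alpha subunits had positive values in vehicle, from 0.11 to 0.33, and 3 passed: Psma6 with 0.33, Psma1 with 0.30 and Psma5 with 0.30. All 7 were positive with quantile scaling, the deposited values and normexp background too. Under BAPN 3 of the 7 were positive and 0 passed; their values ran from -0.18 to 0.23, with adjusted p-values from 0.178 up (limma), and 0 had an unadjusted p under 0.05. With quantile scaling and with the deposited values 4 of the 7 were positive there and 1 was called higher. Of the 7 constitutive beta subunits 1 passed in vehicle, Psmb2, a structural subunit, with 0.44 (limma, adjusted p = 0.0433). Psmb2 had levels of 2.35, 2.32, 2.27 and 2.49 on ATII vehicle arrays, against 2.03, 2.09, 2.01 and 1.51 on fibroblast vehicle arrays, where replicate 4 stood below the other 3. The call was lost in 14 of 21 other settings. Under BAPN Psmb2 had a value of -0.33 and did not pass.

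In vehicle the 19S particle had few called members. Of its 6 ATPases 0 passed, with values between -0.12 and 0.14 and 95% intervals that lay inside 1.5-fold for all 6, and 0 had an unadjusted p under 0.05. Of the 11 other subunits only Psmd13, part of the lid that holds the deubiquitinase, passed. Psmd13 had levels of 4.44, 4.33, 4.33 and 4.16 on ATII vehicle arrays, against 4.59, 4.55, 4.77 and 4.95 on fibroblast vehicle arrays, a difference of -0.40 ± 0.11 (SE; limma, adjusted p = 0.0137) without overlap. It was -0.49 ± 0.12 under BAPN (limma, adjusted p = 0.00718). Psmd9, an assembly chaperone of the ATPase ring, was called lower by its brightest probe (-0.29, adjusted p = 0.0446, limma), while its other probe gave 0.12.

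Under BAPN, 6 of the 46 genes were higher and 4 lower in ATII cells than in fibroblasts, against 31% of all probes called, 13.8% higher and 17.2% lower. Groups did not overlap for 13 of the 46 genes and for 35.6% of all probes tested. The 4 lower ones were 19S subunits. Psmd14, the deubiquitinase of the lid, had levels of 2.57, 2.71, 2.76 and 2.74 in ATII cells, against 3.29, 3.32 and 3.18 in fibroblasts, a difference of -0.57 ± 0.11 (limma, adjusted p = 0.00167). Psmd8, another lid subunit, had levels of 4.82, 4.81, 4.96 and 4.61 in ATII cells, against 5.16, 5.50 and 5.24 in fibroblasts, a difference of -0.50 ± 0.12 (limma, adjusted p = 0.00489). Psmd13 had levels of 4.31, 4.22, 4.38 and 4.40 in ATII cells, against 4.64, 4.94 and 4.88 in fibroblasts. All fibroblast arrays were above all ATII arrays for these 3 genes. The ATPase Psmc6 was lower by its difference of -0.36, with overlapping groups. The vehicle and BAPN contrasts share no arrays, and 7 genes were called the same way in both: Psme1, Psme2, Psmb8, Psmb10, Psmg1 and Psmg4 as higher and Psmd13 as lower. None was called in opposite directions. These 7 were 7 of the 13 called in vehicle and 7 of the 10 called under BAPN. Across the 46 genes, which are not independent and share probes and slides, the 2 sets of differences had Pearson's r of 0.63 and Spearman's rho of 0.45, and 28 of 46 had the same sign.

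Within slides, the vehicle differences on slide 1 were 0.95 for Psmg4, 0.97 for Psmb8, 0.75 for Psme1, 0.66 for Psme2 and 0.44 for Psmb10, and these 5 were the genes called there (limma, adjusted p from 0.00403 to 0.0367). On slide 2 they were 1.34, 0.58, 0.59, 0.55 and 0.50 in the same order, all positive, and Psmg4 alone passed (limma, adjusted p = 0.0294). Each of these comparisons had 2 arrays in each group. Over all probes tested 22.8% were called on slide 1 and 17.4% on slide 2. Under BAPN slide 1 held 3 ATII arrays and 1 fibroblast array, and slide 2 held 1 ATII array and 2 fibroblast arrays, and a lone array is assumed to vary like the rest. The differences there were 0.90 on slide 1 and 0.91 on slide 2 for Psme1, and 1.11 and 0.64 for Psmb8. Leaving out fibroblast vehicle replicate 1 left 6 genes called higher, against 5294 of 38846 probes. Leaving out ATII vehicle replicate 2 or replicate 4 left 7, against 4882 of 38735 and 4868 of 38579 probes. Quantile scaling moved the median of all probes in the vehicle contrast to -0.01, and 10 proteasome genes were called higher and 2 lower there. Under BAPN the same scaling called 10 higher and 3 lower, against 6 and 4.

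Genes around the proteasome were listed by role. Of 20 measured partners (ubiquitin genes, shuttle factors, deubiquitinases and adaptors), 4 were higher and 3 lower in ATII than in fibroblast vehicle cultures, with a median of -0.04. Over all probes tested 33.5% were called in this contrast, 14.7% as higher and 18.8% as lower, so the share of partners called was near the background. The shuttle factors Ubqln1 and Ubqln2, which carry tagged proteins to the proteasome, were higher by 0.52 and 0.55, and the proteasome-bound deubiquitinase Uchl5 by 0.51. Ubqln4 was higher by 0.36. Ecpas, a scaffold that binds the proteasome, had a difference of -0.75 and Nploc4 one of -0.43. Of 9 regulators of proteasome transcription, Ddi2, the protease that activates the factor Nfe2l1, was higher by 0.53, and Ngly1, which strips sugars from that factor, had a difference of -0.42. The other 7 did not pass.

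Of 10 genes of interferon response and peptide loading, 4 were higher and 1 lower in ATII than in fibroblast vehicle cultures. Their median difference was -0.13, and 33.5% of all probes tested were called in this contrast. Irf1, a factor that drives immunoproteasome genes, averaged 2.98 ± 0.15 in ATII vehicle and 1.505 ± 0.14 in fibroblast vehicle cultures (SD, n = 4 each), a difference of 1.48 (limma, adjusted p = 7.7e-07). Erap1, which trims peptides in the endoplasmic reticulum, was higher by 2.12 and Tapbp, which loads them on MHC class I, by 1.06. Tap1, the peptide transporter subunit whose gene lies beside Psmb8 and Psmb9, went the other way: it averaged -2.83 ± 0.08 in ATII vehicle and -1.76 ± 0.45 in fibroblast vehicle cultures, a difference of -1.07 (limma, adjusted p = 0.00131). Under BAPN 3 of the 10 were higher, Irf1, Erap1 and Tapbp, and 2 were lower, Tap1 among them, against 31% of all probes called. The remaining gene that was higher in vehicle was not called higher there.

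The cell types' leukocyte marker sums ran opposite to Psmb8, Psmb10, Psme1 and Psme2: the sums were lower in ATII cultures and the 4 genes higher. The part of other cells in the proteasome values was not tested.

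BAPN against vehicle was compared in each cell type. In ATII cells 0 of the 46 genes were called, and 0% of all 38559 probes tested were called (limma), while 4060 probes and 5 of the 46 genes had an unadjusted p under 0.05. The values of the 46 genes ran from -0.62 to 0.24 with a median of -0.02, against -0.01 for all probes. The 95% intervals of 44 of the 46 genes lay inside a change of 1.5-fold, and those of 45 inside 2-fold, against 46.3% and 72.1% of all probes. The catalytic subunits had values of 0.02 for Psmb8, 0.16 for Psmb9 and 0.05 for Psmb10, and 0.24 for Psmb5, 0.12 for Psmb6 and -0.12 for Psmb7.

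In ATII cells 5 of the 46 genes had groups that did not overlap, Psma6, Psmb2, Psmd14, Psme1 and Psme4, against 9.43% of all probes tested, a share near that of the members. Psmb2 had levels of 1.58, 2.13, 1.71 and 1.65 on BAPN arrays, against 2.35, 2.32, 2.27 and 2.49 on vehicle arrays, a difference of -0.59 (limma, adjusted p = 0.465). Psme4 had levels of 0.89, 0.76, 0.40 and 0.66 on BAPN arrays, against 1.04, 1.31, 1.35 and 1.49 on vehicle arrays, a difference of -0.62 (limma, adjusted p = 0.465), and its second probe gave -0.28. Psmb2 is named here after its values were seen. Neither passed the threshold, and both intervals reached past 1.5-fold.

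**Figure D4:**
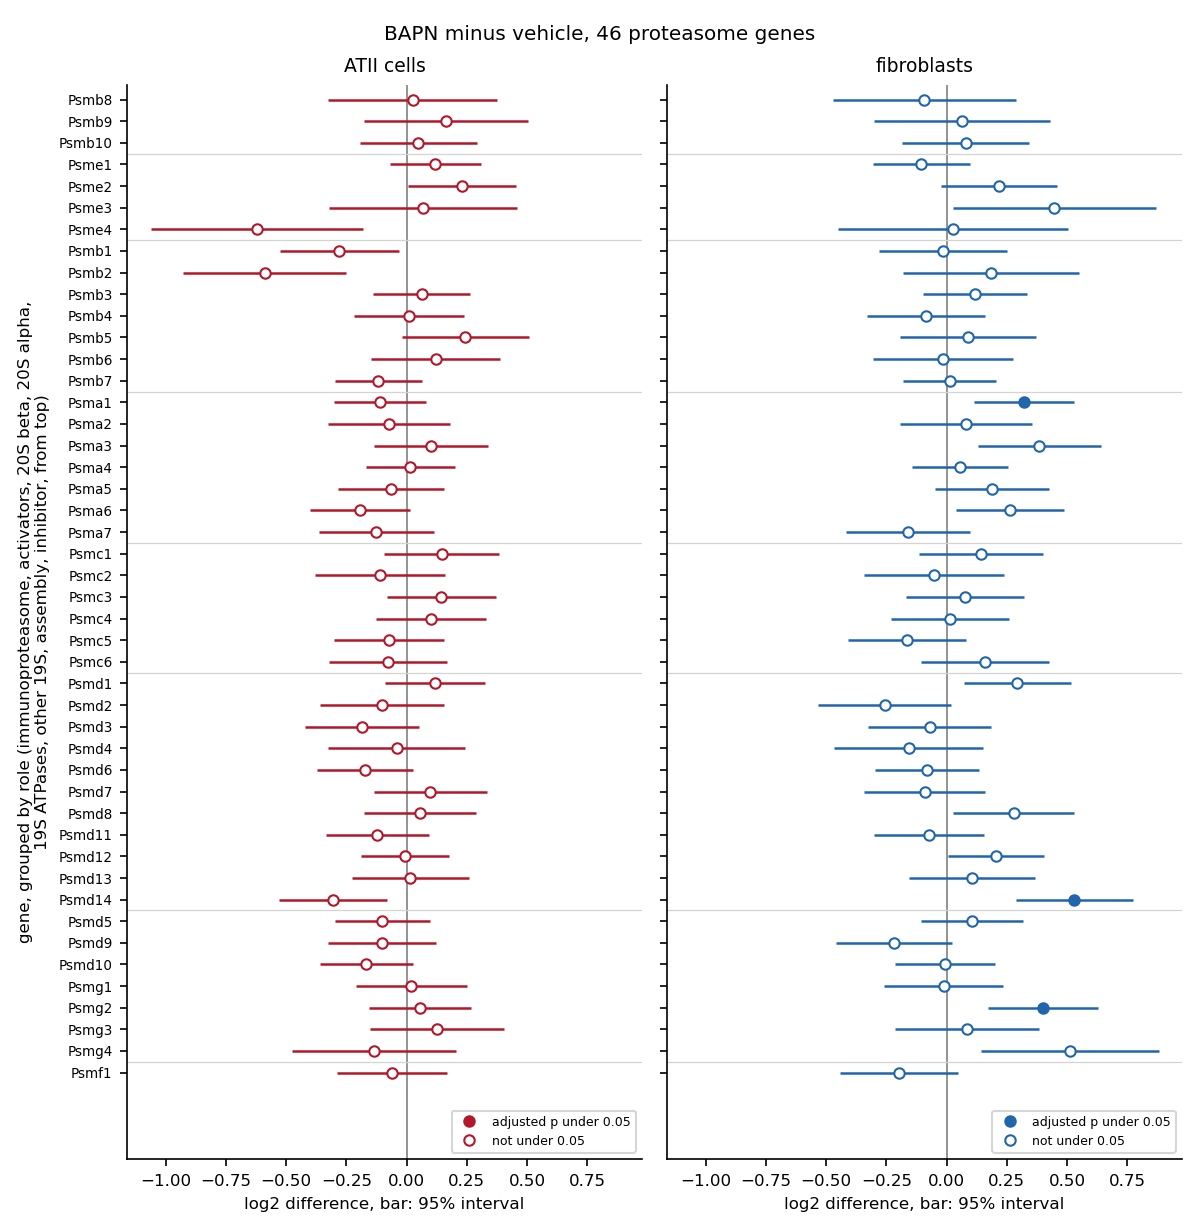
Difference between BAPN and vehicle for the 46 measured proteasome genes in ATII cells (left) and fibroblasts (right), on the log2 scale. Points are limma estimates, bars 95% intervals, filled points have an adjusted p under 0.05 over all probes, and genes are in the order of the cell-type plot. In ATII cells 0 points are filled, and in fibroblasts those of Psma1, Psmd14 and Psmg2 are.

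In fibroblasts 3 of the 46 genes were higher with BAPN than with vehicle and 0 lower, 6.52% of them, against 12.5% of all 38720 probes called, 1.92% higher and 10.6% lower. Psmd14 had levels of 3.29, 3.32 and 3.18 on BAPN arrays, against 2.86, 2.80, 2.77 and 2.50 on vehicle arrays. The groups did not overlap, and the difference was 0.53 ± 0.11 (SE), 1.44-fold (limma, adjusted p = 0.0121). Psmg2 had levels of 2.55, 2.53 and 2.58 on BAPN arrays, against 2.29, 2.02, 2.06 and 2.23 on vehicle arrays, a difference of 0.40 ± 0.11 (limma, adjusted p = 0.0271). Psma1 had levels of 5.18, 5.19 and 5.04 on BAPN arrays, against 4.76, 4.79, 4.82 and 4.89 on vehicle arrays, a difference of 0.32 ± 0.10 (limma, adjusted p = 0.044). All 3 were among the 10 of the 46 genes whose groups did not overlap, against 22.9% of all probes tested. The call was lost in 6 of 20 other settings for Psmd14, in 11 of 20 for Psmg2 and in 16 of 20 for Psma1. Psmg4, with 0.51, and Psma3, with 0.39, lay just outside the threshold (limma, adjusted p = 0.0678 and 0.0502).

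The probes of the 3 genes lay in the right part of the array, at columns 128, 137 and 141 of 164. Of the 20 genes with a probe in columns above 82, 19 had a positive value in fibroblasts, with a median of 0.20, and 3 were called higher. Of the 26 genes in columns 1 to 82, 9 had a positive value, with a median of -0.03, and 0 were called. Probes with a mean level above 0 split likewise. In columns above 82, 7.82% of them were called higher, with a median of 0.15. In columns 1 to 82, 0.416% were, with a median of -0.03. Over all probes tested the medians went the other way, with -0.07 in columns above 82 and 0.04 in columns 1 to 82. In columns above 82, 20.2% of these were called lower and 3.35% higher. In columns 1 to 82, 1.03% were called lower and 0.485% higher. Of the 7 genes with tested probes on both sides, 6 had the higher value in columns above 82, with a median difference of 0.16 over the 7. The widest were Psmd9, with 0.39 at column 134 and -0.22 at column 5, and Psmb5, with 0.09 at column 153 and -0.36 at column 17. Psma4 and Psmg1 differed by 0.04 and 0.06, and Psmc3 went the other way, with -0.01 at column 134 and 0.08 at column 76. The 10 spots of Psme1 gave -0.18 to -0.04, with means of -0.06 in columns above 82 and -0.12 in columns 1 to 82. The place of a probe and its change with BAPN cannot be told apart for a gene with 1 probe. With a correction for place on the array 4 of the 46 genes were called higher, against 772 higher and 3735 lower of all 38720 probes. The difference of Psmd14 was then 0.43 (limma, adjusted p = 0.0377), against 0.53 without the correction. The 4 genes that were lower in ATII cells than in fibroblasts under BAPN also lay in columns above 82, and the vehicle contrast had 6 higher genes of 20 in columns above 82 and 5 of 26 in columns 1 to 82. For BAPN against vehicle in ATII cells, 13 of 20 genes were positive in columns above 82, with a median of 0.06. In columns 1 to 82, 9 of 26 were positive, with a median of -0.09. Psmb2 (column 15) and Psme4 (column 41), whose values there were negative, lay in that part. In ATII cells probes with a mean level above 0 split likewise. In columns above 82, 4099 of 6547 of them were positive, with a median of 0.04. In columns 1 to 82, 2335 of 6492 were, with a median of -0.06. The medians of all probes tested were -0.05 in columns above 82 and 0.04 in columns 1 to 82.

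**Figure D5:**
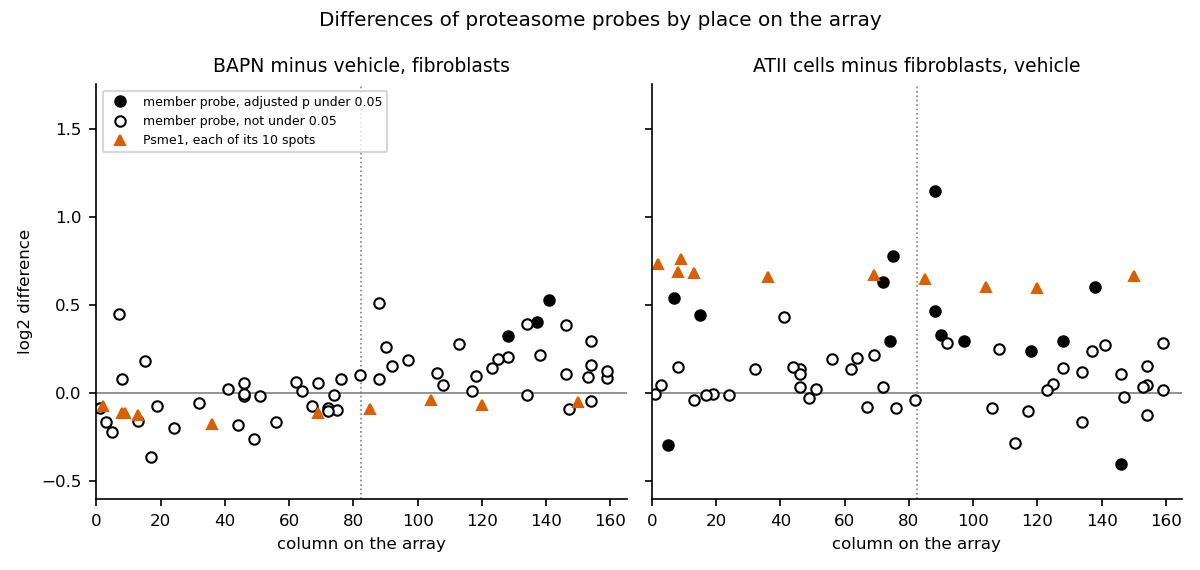
Log2 difference of each tested proteasome probe against its column on the array, for BAPN minus vehicle in fibroblasts (left) and ATII cells minus fibroblasts in vehicle (right). Filled circles have an adjusted p under 0.05, open circles do not, triangles are the 10 spots of Psme1, and the dotted line marks the end of column 82. On the left the called probes lie at columns 128, 137 and 141, and on the right called probes lie on both sides of it.

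Calls in fibroblasts also changed with the fit. Within slide 1 the differences were 0.47 for Psmd14, 0.37 for Psmg2 and 0.39 for Psma1, and within slide 2 they were 0.60, 0.43 and 0.28 in the same order, with 0 of the 46 genes called on either slide (limma), against 1.66% of all probes on slide 1 and 15.8% on slide 2. Slide 1 held 1 fibroblast BAPN array, which is assumed there to vary like the rest, and slide 2 held 2. With the replicate number as a block 0 were called, the difference of Psmd14 being 0.54 (limma, adjusted p = 0.108). Leaving out fibroblast BAPN replicate 2 left 0 genes called, and leaving out fibroblast vehicle replicate 2 or replicate 3 left 1.

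The immunoproteasome and activator genes had no called change with BAPN in fibroblasts. Psmb8 had a value of -0.09, Psmb9 of 0.06 and Psmb10 of 0.08, all with overlapping groups and 95% intervals inside 1.5-fold. Psme1 had a value of -0.10 and Psme2 of 0.22. Psme3, whose BAPN levels were 1.41, 0.44 and 0.69, against 0.48, 0.10, 0.41 and 0.61 with vehicle, had a value of 0.45 with an interval of 0.02 to 0.87 (limma, adjusted p = 0.166). Of the other interferon and peptide loading genes, B2m and Erap1 were higher by 0.48 and 0.74 and Nlrc5, a class I activator, lower by a difference of -0.87, with probes at columns 84, 145 and 120.

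The effect of BAPN was set against itself between cell types, as the ATII effect minus the fibroblast effect. For 0 of the 46 genes, and 0% of 41163 probes, did this difference pass (limma), while 6 of the 46 genes and 5834 probes had an unadjusted p under 0.05. The largest was that of Psmd14, whose effect was -0.31 in ATII cells and 0.53 in fibroblasts, a difference of -0.84 with a 95% interval of -1.17 to -0.50 (limma, adjusted p = 0.168). Without ATII BAPN replicate 4 it was -0.86 with an adjusted p of 0.042 (limma), the only setting in which it passed. It was the only member called there, against 1.54% of all probes, 604 higher and 28 lower. In the other settings its adjusted p ran from 0.089 to 0.54. For Psmb8, Psmb9 and Psmb10 the differences were 0.12, 0.10 and -0.03, and the intervals of Psmb8 and Psmb9 reached past 1.5-fold.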

How the data were processed

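The members and all gene lists were chosen with earlier results of these data known. Scanner output was made by the authors with Agilent Feature Extraction 10.7.3.1; its intensity values had local background taken off and a spatial trend removed on each array by itself, per the file headers, with no step between arrays. A deposited table of log2 values for the same arrays, with columns of near-equal distribution (median 5.98) and r of at least 0.999 with each array's own intensity, served as an alternative; its background step and normalization are not stated in any source used. Accessions of 59 of the 61 probes matched their gene's symbol in a RefSeq table of assembly GRCm38.p6, and 2 were not in it.

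For levels, the 75th percentile of an array's non-control spots was subtracted from log2 processed intensity, with outlier spots left out and spots of a probe averaged. Between 65.2% and 71.2% of spots were well above background and 0 were saturated; precision is limited by how many arrays there are. Tested were probes well above background on 3 or more arrays among the groups of a comparison. The model, in limma 3.58.1 (R 4.3.3), held 4 group means over all 15 arrays (11 residual degrees of freedom), with empirical Bayes moderation, two-sided tests and Benjamini-Hochberg adjustment over all probes.

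The ATII BAPN array labelled as a replacement has no replicate number and is called replicate 5; fibroblast BAPN replicate 3 is not analysed here. Named were, per comparison, up to 8 called members with the largest change, the 6 catalytic subunits and the 4 activators, with other members by counts and ranges or as said in the text; values of some listed genes are not reported here. In vehicle, the deviations of same-numbered ATII and fibroblast arrays from their group means correlated by 0.2 to 0.364, as did differently numbered arrays of one slide (0.234 to 0.316). With the number as a block, 8 genes were higher and 1 lower there, Psmd9 being lost with its difference of -0.29 at an adjusted p of 0.0898 (limma).

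On simulated data with the same design, 48 of 100 changes of 1 log2 unit and 9 of 100 of 0.5 were recovered for BAPN in ATII cells (38559 probes), and 38 and 2 of 100 in fibroblasts (38720 probes). The changed probes were drawn from all tested probes, dim ones included, and all other probes were left unchanged. These rates are therefore not those of the proteasome genes, most of which are bright.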

Additional observations from a re-analysis of the deposited data

Results flagged for a closer look

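Across the 46 measured genes and the 3 groups of 4 arrays, 138 sets of 4 levels were checked for 1 array far from the other 3 (Dixon's test at the 95% level, critical value 0.829). Chance gives about 1 in 20, and 7 were found, against 6.9 by that rate. In ATII BAPN cultures, Psmb7 was high in replicate 3, at 4.29. In ATII vehicle cultures, Psma3 was high in replicate 2 (6.14, others 6.00 to 6.02), Psma6 high in replicate 1 (4.78, others 4.71 to 4.73) and Psmb3 low in replicate 4 (5.99, others 6.09 to 6.10). In fibroblast vehicle cultures, Psma6 was high in replicate 3 (4.51, others 4.36 to 4.37), Psmb2 low in replicate 4 (1.51, others 2.01 to 2.09) and Psmd8 low in replicate 1 (4.93, others 5.05 to 5.07). No array carried more than 1 of them, and the 3 fibroblast BAPN arrays were too few for the check.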

How the results depend on the processing

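BAPN calls among the 46 genes in ATII cells stayed at 0 under all alternatives run; over all probes, slide 2 alone, with 1 BAPN array, called 1744 higher and 1540 lower (10.1%), and leaving out ATII BAPN replicate 1 called 1. In fibroblasts, the 3 genes higher with BAPN became 1 with quantile scaling and with the deposited table, and 0 with normexp background correction, on slide 1 alone, on slide 2 alone, with the replicate block, and with the fibroblast arrays fitted alone; leaving out 1 array gave 0 to 3. For the difference of the BAPN effects, 0 to 1 genes were lower when 1 array was left out. For ATII cells against fibroblasts in vehicle, the main fit gave 11 higher and 2 lower. No filter on dim probes gave 7 and 1, slide 1 alone 5 and 0, and slide 2 alone 1 and 0. Over all probes 22.8% were called on slide 1 and 17.4% on slide 2. The mean of all probes of a gene, the replicate block shared by both cell types, and the 2 groups fitted alone gave 1 lower. Leaving out 1 array gave 6 to 11 higher and 1 to 2 lower. Other calls were gained: normexp background called 4 alpha subunits, 4 assembly factors and 1 non-ATPase 19S subunit higher, against 3, 2 and 0. It called 1 immunoproteasome subunit higher, against 2 in the main fit. For the same contrast under BAPN (6 higher, 4 lower), quantile scaling gave 10 higher, slide 1 alone 3 and 2, slide 2 alone 1 and 0, the shared replicate block 2 lower and the 2 groups fitted alone 3 higher; leaving out 1 array gave 3 to 6 higher and 3 to 4 lower. The single slides hold fewer arrays; for the others the cause was not tested.

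Of the named genes, Psmg4 in vehicle (0.95 to 1.34) and Psme1 under BAPN (0.87 to 0.96) kept their calls in all alternatives, of which the single slides under BAPN have a group of 1 array, and no called gene changed sign. Psmb8, Psme1 and Psme2 in vehicle each lost their call on slide 2 alone, and Psmb10 there and with normexp background. The shared replicate block was chosen after seeing the data. Same-numbered BAPN and vehicle arrays, which share a slide, correlated by -0.027 to 0.288 in fibroblasts and -0.015 to 0.408 in ATII cells. Differently numbered arrays of one slide correlated lower, by -0.388 to -0.322 in fibroblasts and -0.248 to -0.144 in ATII cells. Whether the numbers pair the arrays was not tested, and the main fit does not pair them. The replicate block left 0 of the 46 genes called with BAPN in either cell type.

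In the simulation, which drew on all tested probes, changes of 1 log2 unit or less were often missed. Its rates were not taken for the proteasome genes alone, among which some differences well under 1 log2 unit were called. Dim genes have only bounds.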
